A study of Mus musculus with 6 samples.

Results

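The 10 genes described here are the innate sensors Tlr1, Tlr2, Tlr3, Tlr4, Ddx58 and Ifih1, the adaptors Myd88, Ticam1 and Mavs that carry their signals, and the transcription factor Irf1. They were chosen by symbol, by a rule that uses no measured value but with earlier results of these data known, and each matched 1 of the 55487 Ensembl genes in the files. Their RNA was measured in epidermis lifted from back skin of mice at postnatal day 0, in 3 libraries labelled Znf750 cKO and 3 labelled control. The libraries were made from poly(A) RNA of the trypsin-dissociated epidermal suspension, and no cell sort is named. No source used here names the Cre driver, the alleles, the genotype of the controls or the number of animals behind a library. P-values therefore measure the spread between these libraries, which may be technical.

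Toll-like receptors are membrane proteins that recognise molecules of microbes. TLR2 pairs with TLR1 at the cell surface to bind bacterial lipopeptides, TLR4 responds to lipopolysaccharide together with CD14 and MD-2, and TLR3 detects RNA duplexes in endosomes. TLR1, TLR2 and TLR4 signal through MyD88, TLR3 signals through TRIF, the product of Ticam1, and TLR4 uses both. In the cytosol, RIG-I, the product of Ddx58, and MDA5, the product of Ifih1, detect viral RNA and signal through MAVS on mitochondria. IRF1 is a transcription factor that interferon induces and that activates genes of antigen presentation and antiviral defence. Keratinocytes and the resident leukocytes of the epidermis, such as Langerhans cells, can both express such sensors.

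Short promoter stretches are printed because 2 routes known to act downstream of these receptors, interferon regulatory factors and NF-kB, bind recognisable sequences. RefSeq promoters of GRCm38.p6, 250 bases before to 50 after a gene start, were found for 9 of the 10 genes (11 promoters), and Tlr4 has no entry. The core of the interferon response element, read as GAAA, any 2 bases and GAAA, was found on either strand in Ddx58, Ifih1 and Myd88, and in 3.4% of all 32851 promoters in the table. An NF-kB type motif, read as GGG, any 3 bases and TTCC, was found in Tlr2 and Tlr3, and in 5.6% of all promoters. TTCNNNGAA, a STAT type motif, was found in Tlr1, Myd88 and Irf1, and in 8.3% of all promoters. The match of the STAT type in Myd88 overlaps the start of its interferon response element match. The first 5 matches are shown 5′ to 3′ on the strand of the gene, with the motif or its reverse complement in capitals. They are matches of letters and carry no measurement.
Ddx58, chr4:40239804-40239833, minus strand: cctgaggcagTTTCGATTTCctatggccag
Ifih1, chr2:62646206-62646235, minus strand: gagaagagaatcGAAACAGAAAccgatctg
Myd88, chr9:119340039-119340068, minus strand: gagcttctcgGAAAGCGAAAgaaggagggg
Tlr2, chr3:83841762-83841791, minus strand: taggacacctGGGGAATTCCcacacggagc
Tlr3, chr8:45410572-45410601, minus strand: agttgtttctGGGAGTTTCCtgcttttgag

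The values are FPKM, fragment numbers scaled to transcript length and to library depth, so levels of different genes can be set side by side. Depth was estimated from the steps of low FPKM values at 22.9 to 35.4 M (mega) reads in Znf750 cKO libraries and 21.3 to 28.4 M reads in control libraries. At that depth 1 read per kilobase of transcript equalled 0.0283 to 0.0469 FPKM. The targeted gene, Zfp750, stood at 0.99, 0.83 and 1.47 FPKM in Znf750 cKO libraries, against 44.8, 32.0 and 34.9 FPKM in control libraries. Keratinocyte markers were abundant in all 6 libraries, with Krt5 between 6646 and 6909 FPKM in Znf750 cKO libraries and between 6275 and 6973 FPKM in control libraries. Dsg3 and Krt14 were higher in every Znf750 cKO library, while Krt15 and Lor had lower fitted levels there, as described with the marker lists.

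No tested gene of the 10 passed the threshold between Znf750 cKO and control epidermis. The test was limma on log2(FPKM + 1) across all genes with at least 1 FPKM in 3 libraries, and a gene was called changed at a Benjamini-Hochberg adjusted p under 0.05. Of the 10 genes, 8 were tested, and Tlr3 and Tlr4 lay under the filter. By limma 0 of the 8 rose and 0 fell, while 4.22% of all 13688 tested genes changed, 1.11% upwards and 3.1% downwards. That split of 152 higher and 425 lower genes depended on scaling, and was 258 and 295 with median-ratio scaling and 201 and 218 with quantile normalization. At an unadjusted p under 0.05 there was 1, Tlr2. Its unadjusted limma p of 0.019 became 0.15 after adjustment, since p-values of that size were common over all tested genes. The fitted log2 changes of the 8 genes had a median of -0.21 with 6 negative, against a median of -0.077 over all tested genes. This lean depended on scaling too. With quantile normalization Tlr1, Ifih1, Myd88, Mavs and Irf1 were at 0.0083, -0.0079, -0.027, -0.035 and -0.016. Tlr2, Ddx58 and Ticam1 were then at -0.34, 0.46 and 0.23, and the median of all tested genes was 0.014. Without rescaling, the 95% intervals of all 8 lay between -0.97 and 0.83 on the log2(FPKM + 1) scale. Changes within them were not excluded at this replication. The pseudocount of 1 shrinks changes of low genes, so these limits do not exclude larger changes in FPKM. With a pseudocount of 0.1 the interval was -1.57 to 0.68 for Tlr1 and -1.44 to -0.17 for Tlr2. In bulk samples, fewer cells of a type and less RNA per cell cannot be told apart. With the replicate number as a block, 2.86% of all tested genes changed (0.994% rose and 1.87% fell), and 0 members. No member passed under any of the 17 other settings run, and the lowest adjusted p among them was 0.11, for Tlr2 in limma without an intensity trend or robust variances.

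**Figure D1:**
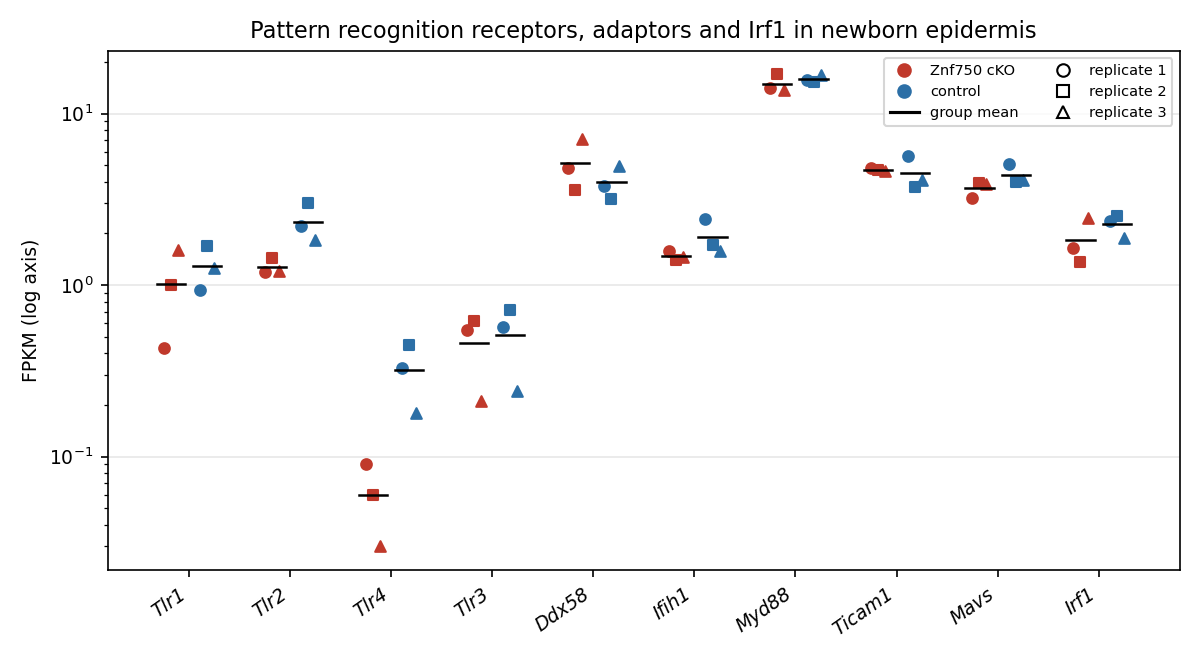
FPKM of the 10 genes on a log axis, with each point a library, the shape giving the replicate number and the bar the group mean; Znf750 cKO is on the left of each pair and control on the right. Myd88 was the highest of the 10 in all 6 libraries and Tlr4 the lowest, and the groups did not overlap for Tlr2, Tlr4 and Mavs.

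The levels spanned a wide range and kept much the same order in both groups. In Znf750 cKO epidermis Myd88 averaged 14.9 ± 1.77 FPKM (SD, n = 3, as for the following means), ahead of Ddx58 at 5.18 ± 1.80, Ticam1 at 4.71 ± 0.11 and Mavs at 3.68 ± 0.39. Irf1 at 1.82 ± 0.56, Ifih1 at 1.48 ± 0.093, Tlr2 at 1.28 ± 0.13 and Tlr1 at 1.01 ± 0.59 came next, followed by Tlr3 at 0.46 ± 0.22 and Tlr4 at 0.060 ± 0.030. In control epidermis Myd88 averaged 15.8 ± 0.78 FPKM, followed by Ticam1 at 4.48 ± 1.01, Mavs at 4.38 ± 0.58, Ddx58 at 3.98 ± 0.91, Tlr2 at 2.35 ± 0.61, Irf1 at 2.26 ± 0.33, Ifih1 at 1.90 ± 0.46, Tlr1 at 1.29 ± 0.37, Tlr3 at 0.51 ± 0.25 and Tlr4 at 0.32 ± 0.14. Myd88 stood clear of the next gene in both groups. In Znf750 cKO epidermis the ranges of neighbours overlapped from Irf1 down to Tlr3 and between Ddx58 and Ticam1. In control epidermis they overlapped from Ticam1 to Ddx58, from Tlr2 to Tlr1, and between Tlr3 and Tlr4.

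Tlr2 (ENSMUSG00000027995, chromosome 3, 83836272 to 83841767, minus strand, GRCm38), the receptor of bacterial lipopeptides, had 1.19, 1.43 and 1.21 FPKM in Znf750 cKO libraries, against 2.21, 3.01 and 1.82 FPKM in control libraries. Each Znf750 cKO library was below each control library. The ratio of means was 0.544 and the log2 change was -0.54 (SE 0.18, limma adjusted p = 0.15, and 0.13 with the replicate number as a block). Tlr2 has 1 annotated transcript of 3014 bases, which places its estimated reads at 80.8 to 122.7 in Znf750 cKO libraries and 123.4 to 187.2 in control libraries. Its fitted change stayed negative in all 18 fits, from -0.81 to -0.34 on the log2 scale. The changes of Ifih1, Irf1 and Mavs were also negative in all 18, and the fits share the same libraries.

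Groups that do not overlap are common in these data. They occurred in 28% of all tested genes, in 19.7% with Znf750 cKO below control and in 8.28% with Znf750 cKO above it. Among the 8 tested members they occurred in 2, Tlr2 and Mavs, both with Znf750 cKO below control.

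Tlr1 (ENSMUSG00000044827, chromosome 5, 64924679 to 64933563, minus strand), the partner of Tlr2, had 0.43, 1.00 and 1.60 FPKM in Znf750 cKO libraries, against 0.94, 1.68 and 1.25 FPKM in control libraries. Znf750 cKO replicate 1 was the lowest of the 6 libraries, and the groups overlapped. Its log2 change of -0.22 (SE 0.26, limma adjusted p = 0.69) became 0.0065 without Znf750 cKO replicate 1.

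Tlr4 (ENSMUSG00000039005, chromosome 4, 66827584 to 66930284, plus strand), the lipopolysaccharide receptor, was the least abundant of the 10 genes. It had 0.09, 0.06 and 0.03 FPKM in Znf750 cKO libraries, against 0.33, 0.45 and 0.18 FPKM in control libraries. The groups did not overlap, and the ratio of means was 0.188. The exact two-sided permutation test of the difference gave p = 0.10, the smallest that 3 against 3 libraries allow. If all its RNA were the longest annotated transcript, these values would stand for 2.7 to 12.7 reads per Znf750 cKO library and 16.7 to 38.2 reads per control library, and for fewer reads if shorter transcripts contributed. With the filter lowered to 0.1 FPKM and a pseudocount of 0.1, settings chosen after the values were seen, Tlr4 is admitted through its control libraries alone, so its fit there is no test of a difference. Under those settings 2.14% of 21938 tested genes changed (0.556% rose and 1.59% fell), and 0 of the 10 members. The groups did not overlap for 22.6% of those genes, 16.2% lower and 6.37% higher in Znf750 cKO epidermis. Among 13741 genes under the filter of 1 FPKM and above 0 in at least 3 libraries, where Tlr3 and Tlr4 lie, they did not overlap for 10.8%, with 7.84% lower and 2.97% higher in Znf750 cKO epidermis.

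Tlr3 (ENSMUSG00000031639, chromosome 8, 45395665 to 45411080, minus strand), the endosomal sensor of RNA duplexes, had 0.55, 0.62 and 0.21 FPKM in Znf750 cKO libraries, against 0.57, 0.72 and 0.24 FPKM in control libraries. The groups overlapped almost fully (exact two-sided permutation p = 0.70). In each group the third replicate was the low one. Tlr3 exons overlap the antisense gene Gm45542, which was listed at 0 in Znf750 cKO libraries and at 0.52, 0 and 0.13 FPKM in control libraries, and no source used here states whether reads were counted by strand.

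The cytosolic RNA sensors pointed in opposite directions, neither past the threshold. Ddx58 (ENSMUSG00000040296, chromosome 4, 40203773 to 40239828, minus strand) had 4.82, 3.58 and 7.13 FPKM in Znf750 cKO libraries, against 3.80, 3.17 and 4.97 FPKM in control libraries. The third replicate was the high one in both groups, and the groups overlapped. For Ddx58 the fitted log2 difference was 0.29 (SE 0.24, limma adjusted p = 0.54). Blocking on the replicate number gave an SE of 0.13 and a limma adjusted p of 0.24. Each Znf750 cKO library was above the control library of the same number. Such a fixed order by number was not particular to Ddx58, as Tlr2, Tlr3, Tlr4, Mavs and Ifih1 kept the opposite one.

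Ifih1 (ENSMUSG00000026896, chromosome 2, 62595798 to 62646255, minus strand) had 1.58, 1.40 and 1.45 FPKM in Znf750 cKO libraries, against 2.42, 1.71 and 1.57 FPKM in control libraries. Control replicate 1 was the high one, and Znf750 cKO replicate 1 lay just above control replicate 3. Its log2 change was -0.22 (SE 0.18, limma adjusted p = 0.53, and 0.46 with the replicate number as a block). A test of the difference between the changes of Ddx58 and Ifih1 was not made.

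No adaptor passed the threshold, and their summed level was 22.2, 25.5 and 22.1 FPKM in Znf750 cKO libraries, against 26.3, 22.9 and 24.9 FPKM in control libraries. Myd88 (ENSMUSG00000032508, chromosome 9, 119335934 to 119341411, minus strand), the adaptor of most Toll-like receptors, had 14.2, 16.9 and 13.6 FPKM in Znf750 cKO libraries, against 15.6, 15.2 and 16.7 FPKM in control libraries. The highest and the lowest of the 6 values were both in Znf750 cKO libraries. Myd88 had a log2 change of -0.087 (95% interval -0.36 to 0.19, limma adjusted p = 0.74). Exons of Myd88 overlap those of Acaa1a on the opposite strand, which stood at 28.2, 32.5 and 20.6 FPKM in Znf750 cKO libraries and 33.5, 39.5 and 37.4 FPKM in control libraries, so reads in the shared stretch cannot be told apart unless they were counted by strand, which no source used here states.

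Ticam1 (ENSMUSG00000047123, chromosome 17, 56269319 to 56276786, minus strand), the adaptor of TLR3, had 4.82, 4.69 and 4.61 FPKM in Znf750 cKO libraries, against 5.62, 3.72 and 4.10 FPKM in control libraries. All 3 Znf750 cKO values lay within the control range. For Ticam1 the log2 change was 0.074 (95% interval -0.30 to 0.45, limma adjusted p = 0.86).

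Mavs (ENSMUSG00000037523, chromosome 2, 131234063 to 131248025, plus strand), the adaptor of RIG-I and MDA5, had 3.23, 3.92 and 3.88 FPKM in Znf750 cKO libraries, against 5.05, 4.01 and 4.09 FPKM in control libraries. The groups did not overlap, but the gap between 3.92 and 4.01 FPKM was small beside the spread within either group. The fitted log2 difference of Mavs was -0.20 (SE 0.15, limma adjusted p = 0.49).

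Irf1 (ENSMUSG00000018899, chromosome 11, 53770014 to 53778374, plus strand), the interferon-induced transcription factor, had 1.65, 1.36 and 2.45 FPKM in Znf750 cKO libraries, against 2.36, 2.52 and 1.89 FPKM in control libraries. Znf750 cKO replicate 3 lay among the control values, and the other 2 lay below them. For Irf1 the log2 change was -0.22 (SE 0.19, limma adjusted p = 0.57). Exons of Irf1 overlap the opposite-strand gene Gm17334, which was at most 0.39 FPKM in Znf750 cKO libraries and 0.62 FPKM in control libraries.

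**Figure D2:**
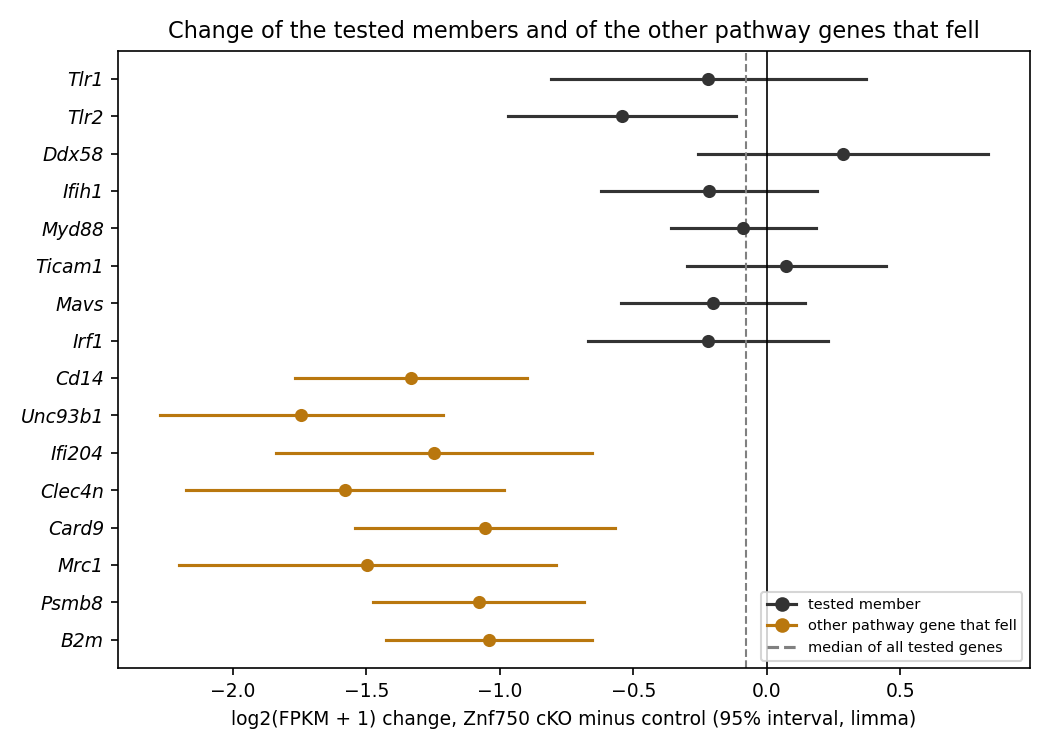
Fitted change in log2(FPKM + 1), Znf750 cKO minus control, with 95% limma intervals, for the 8 tested members (dark) and the 8 other pathway genes that fell (orange); the dashed line is the median of all tested genes, -0.077. Of the members, Tlr2 alone has an interval that leaves out 0. The orange genes are drawn because they passed, so their intervals, all below -0.5, had to leave out 0 and are no comparison for the members.

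The spread within groups was not the same for all members. The coefficient of variation was 57.9% for Tlr1, 50% for Tlr4 and 47.7% for Tlr3 in Znf750 cKO epidermis, and 28.8%, 42.3% and 48.2% in control epidermis. Myd88 and Mavs varied by 11.9% and 10.5% in Znf750 cKO epidermis, and by 4.9% and 13.2% in control epidermis. The third replicate was the extreme one in the same direction in both groups for 3 members, lowest for Tlr3 and Tlr4 and highest for Ddx58. By root mean square difference of centred log2(FPKM + 1) over the 6 libraries, the tested genes whose pattern was most like that of Myd88 were Cnih1, a gene of cargo export from the endoplasmic reticulum, at 0.023, and Ccz1, a gene of endosome maturation, at 0.028. Cnih1 had 46.9, 57.4 and 46.0 FPKM in Znf750 cKO libraries, against 52.7, 52.6 and 57.5 FPKM in control libraries.

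**Figure D3:**
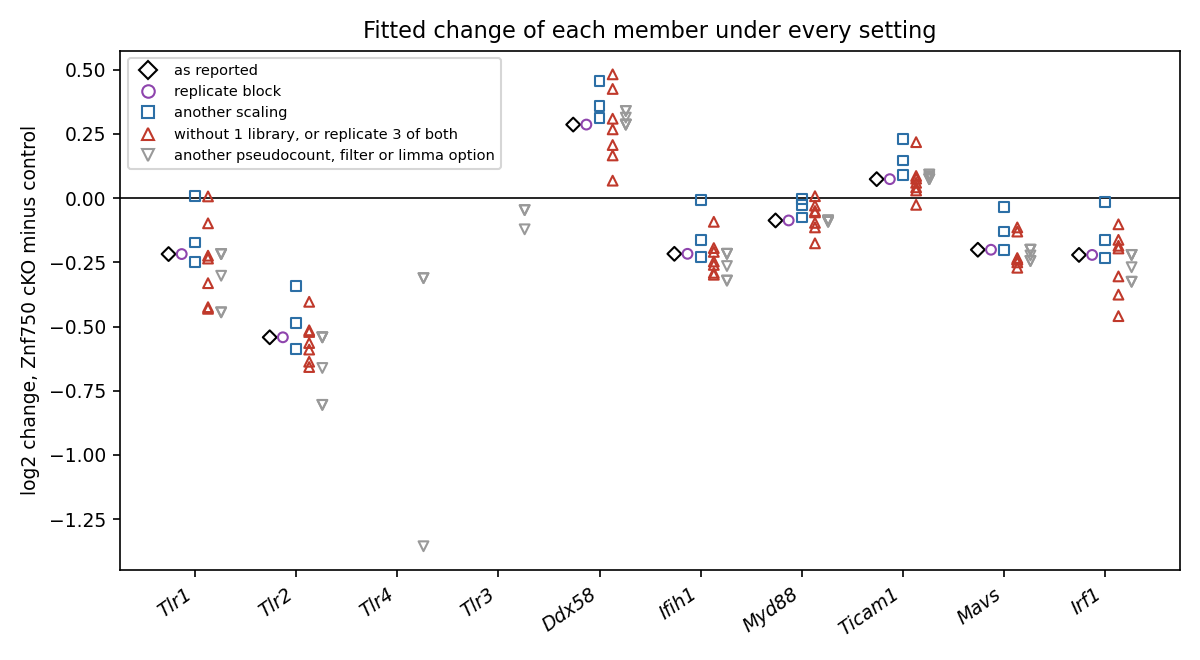
Fitted log2 change of each member, Znf750 cKO minus control, under all 18 fits, grouped by the kind of setting; the horizontal line marks 0, and no member passed in any fit. Tlr2 lies between -0.81 and -0.34, Ddx58 stays above 0, Tlr1, Myd88 and Ticam1 have values on both sides of 0, and Tlr3 and Tlr4 could be fitted only with a lower filter or none; Tlr4 met the lower filter through control libraries alone.

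Other genes of these pathways were lower in part. Of 95 listed genes in 11 lists, 68 were tested, 8 fell, 0 rose and 60 did not pass in limma, beside 3.1% of all tested genes that fell. These lists too were chosen with earlier results known. Of the 68, 8 had every Znf750 cKO library under 1 FPKM and reached the filter through control libraries alone. Of those 3 fell, beside 110 of 224 such genes in the whole table. The other 60 had at least 1 FPKM in 1 or more libraries of each group, and 5 fell, beside 2.35% of 13424 such tested genes. Among the 5, Cd14, Unc93b1 and Ifi204 met the filter by their 3 control libraries without the Znf750 cKO libraries. A difference was thus built into part of this count too. With no filter on low values none of the 8 passed. The median log2 change of the 68 was -0.19. In limma with the replicate number as a block 4 fell, where 1.87% of all tested genes fell. The number that fell was 1 after leaving out Znf750 cKO replicate 1, and 5 after leaving out Znf750 cKO replicate 2 or 3. It was 2, 3 and 5 after leaving out control replicates 1, 2 and 3. Leukocyte markers, described further on, were also lower in Znf750 cKO libraries, with summed levels of 15.4 to 24.6 FPKM, against 101 to 148 FPKM in control libraries, and their part in these calls was not tested.

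Among cofactors of Toll-like receptors 6 were tested and 2 fell, Unc93b1 and Cd14, beside 3.1% of all tested genes that fell. For both, the 3 control libraries met the filter without the Znf750 cKO libraries. A difference was thus partly built into the choice of genes tested, and the count supports nothing about the list. Unc93b1, which carries the endosomal Toll-like receptors from the endoplasmic reticulum, had 1.02, 0.72 and 0.53 FPKM in Znf750 cKO libraries, against 6.62, 4.90 and 3.44 FPKM in control libraries. It fell by 1.74 on the log2 scale (SE 0.23, limma adjusted p = 0.0099, against 0.020 with the block), and passed after leaving out any 1 of the 6 libraries. Those fits kept the genes chosen on all 6 libraries, so the same choice lay under each of them. Cd14, the co-receptor for lipopolysaccharide, had 0.90, 0.83 and 1.21 FPKM in Znf750 cKO libraries, against 5.05, 3.77 and 3.25 FPKM in control libraries. It fell by 1.33 (SE 0.19, limma adjusted p = 0.012, against 0.043 with the block), but not after leaving out Znf750 cKO replicate 1 (adjusted p = 0.064). The groups were well apart for both genes, which the choice of genes tested favoured, and neither gene passed with no filter on low values. Hsp90b1, a chaperone of Toll-like receptors and the most abundant of the list, averaged 93.9 ± 4.67 FPKM in Znf750 cKO epidermis and 118 ± 5.86 FPKM in control epidermis (SD, n = 3, limma adjusted p = 0.10). Cd36, a scavenger receptor that assists Tlr2, had 0.53, 0.40 and 0.92 FPKM in Znf750 cKO libraries, against 2.43, 1.21 and 1.46 FPKM in control libraries (limma adjusted p = 0.12), and is named after its values were seen.

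None of the 8 Toll-like receptors outside the members reached the filter, so they have values and no call. Tlr7, a sensor of RNA in endosomes, had 0.13, 0.13 and 0.10 FPKM in Znf750 cKO libraries, against 0.63, 0.30 and 0.40 FPKM in control libraries. Tlr9, the sensor of bacterial DNA, had 0.03, 0 and 0.06 FPKM in Znf750 cKO libraries, against 0.48, 0.17 and 0.44 FPKM in control libraries. Tlr13, a sensor of bacterial RNA in mice, had 0.14, 0.15 and 0.13 FPKM in Znf750 cKO libraries, against 0.88, 0.45 and 0.62 FPKM in control libraries. Tlr6 was listed at 0 in all Znf750 cKO libraries and at 0.14, 0.05 and 0.21 FPKM in control libraries. For these genes and Tlr8, 5 of the 8, each Znf750 cKO library was below each control library, and they are named after their values were seen. Tlr11 aside, the 8 are among the genes under the filter of which 7.84% were lower without overlap. Tlr5, the flagellin receptor, had 0.99, 0.90 and 0.77 FPKM in Znf750 cKO libraries, against 1.17, 0.73 and 0.72 FPKM in control libraries, and its groups overlapped.

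**Figure D4:**
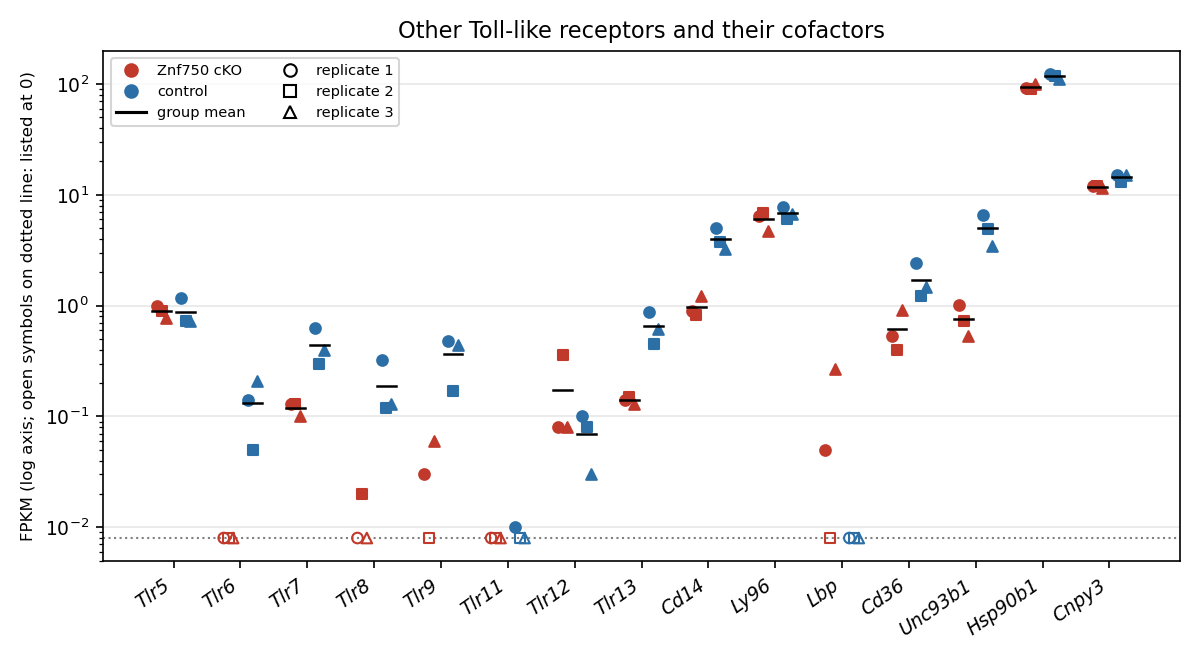
FPKM of the other Toll-like receptors and their cofactors on a log axis, with Znf750 cKO on the left of each pair and control on the right; points are libraries, bars are group means drawn where no library is at 0, and open symbols on the dotted line are values listed at 0. Tlr6, Tlr7, Tlr8, Tlr9, Tlr13, Cd14, Cd36, Unc93b1, Hsp90b1 and Cnpy3 lie lower in every Znf750 cKO library, and Tlr5, Tlr11, Tlr12, Lbp and Ly96 overlap; Lbp is above 0 in Znf750 cKO replicates 1 and 3 alone, at 0.05 and 0.27 FPKM.

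Among C-type lectin receptors and their signalling proteins, 4 were tested and 3 fell. All 4 reached the filter through control libraries alone, so a difference was built into the choice of genes tested and the count of 3 supports nothing about the list. Clec4n, which encodes Dectin-2, a receptor of fungal mannan, had 0.33, 0.15 and 0.98 FPKM in Znf750 cKO libraries, against 3.90, 3.90 and 2.37 FPKM in control libraries (limma adjusted p = 0.019, against 0.060 with the block). Card9, the adaptor of these receptors, had 0.37, 0.19 and 0.27 FPKM in Znf750 cKO libraries, against 1.54, 2.35 and 1.18 FPKM in control libraries (limma adjusted p = 0.036, against 0.065 with the block). The mannose receptor Mrc1, which is also on the macrophage marker list, had 0.24, 0.16 and 0.18 FPKM in Znf750 cKO libraries, against 4.57, 1.79 and 1.45 FPKM in control libraries (limma adjusted p = 0.039, against 0.054 with the block). The groups of these 3 could not overlap, since the filter required 1 FPKM in each control library and every Znf750 cKO library was below it. Card9 did not pass with any 1 of the 6 libraries left out (adjusted p 0.056 to 0.12), Mrc1 passed only without control replicate 3 (0.050 to 0.13 without the others), and Clec4n did not pass without Znf750 cKO replicate 1 (0.087) or control replicates 1 and 2 (0.072 and 0.079), all in limma. With quantile normalization Card9 (0.10) and Mrc1 (0.075) did not pass, nor did Mrc1 in limma without an intensity trend or robust variances (0.052).

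Other sensors of nucleic acids held 5 tested genes, of which 1 fell. The 3 control libraries of that gene met the filter without its Znf750 cKO libraries. Ifi204, a sensor of DNA in mice, had 0.80, 0.50 and 1.86 FPKM in Znf750 cKO libraries, against 4.39, 3.63 and 3.14 FPKM in control libraries (limma adjusted p = 0.040, against 0.070 with the block). Ifi204 passed with 1 library left out only where that was Znf750 cKO replicate 3 (limma adjusted p = 0.017), and not with any of the other 5 (0.081 to 0.14). It did not pass with a pseudocount of 0.1 (0.055) or in limma without an intensity trend or robust variances (0.052). Aim2, the DNA sensor of the inflammasome and the most abundant of the list, had 17.9, 11.3 and 16.6 FPKM in Znf750 cKO libraries, against 8.51, 9.41 and 6.19 FPKM in control libraries. Its Znf750 cKO libraries were all above its control libraries, and the log2 change was 0.84 (SE 0.20, limma adjusted p = 0.062). Aim2 passed in limma with median-ratio scaling (adjusted p = 0.049), with quantile normalization (0.0498) and without Znf750 cKO replicate 2 (0.043).

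Of 7 tested interferon targets linked to Irf1, 2 fell. B2m, the light chain of MHC class I, had 38.0, 47.5 and 41.2 FPKM in Znf750 cKO libraries, against 101, 97.8 and 67.9 FPKM in control libraries (log2 change -1.04, SE 0.17, limma adjusted p = 0.018). The immunoproteasome subunit Psmb8 had 1.81, 1.75 and 1.2 FPKM in Znf750 cKO libraries, against 4.88, 3.81 and 4.66 FPKM in control libraries (log2 change -1.08, SE 0.17, limma adjusted p = 0.018). Both passed with the block, at 0.040 for B2m and 0.046 for Psmb8. In limma B2m did not pass without Znf750 cKO replicate 1 (adjusted p = 0.086), Znf750 cKO replicate 3 (0.0502), control replicate 1 (0.065) or control replicate 2 (0.072). Psmb8 did not pass without Znf750 cKO replicate 1 (0.066), control replicate 1 (0.070) or control replicate 3 (0.061), nor with quantile normalization (0.056).

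In the other 6 lists no gene passed. Tested genes numbered 15 for adaptors and kinases, 8 for negative regulators, 7 for NOD-like receptors and the inflammasome, 6 for interferon regulatory factors, 5 for RIG-I-like receptor partners and 5 for NF-kB subunits. The unadjusted p was under 0.05 in limma for 2, 2, 1, 1, 3 and 1 of them in that order. Such p-values were common over all tested genes, so these counts are not read as a result. For Nlrp10, an unadjusted limma p of 0.051 became 0.24 after adjustment. Tbk1, the kinase that activates interferon regulatory factors, had 29.1, 18.5 and 67.7 FPKM in Znf750 cKO libraries, against 29.9, 30.8 and 60.9 FPKM in control libraries, with the third replicate high in both groups. Means of the most abundant gene of a list were 135 ± 53.4 FPKM in Znf750 cKO epidermis and 87.6 ± 13.6 FPKM in control epidermis for the NF-kB inhibitor gene Nfkbia, and 82.7 ± 25.2 and 121 ± 18.1 FPKM in the same groups for the inflammasome adaptor Pycard (SD, n = 3 each). Nfkb1 averaged 39.7 ± 4.96 FPKM in Znf750 cKO epidermis and 36.6 ± 4.58 FPKM in control epidermis. Zc3hav1, an antiviral RNA-binding protein, averaged 26.9 ± 1.29 FPKM in Znf750 cKO epidermis and 20.5 ± 2.19 FPKM in control epidermis (limma adjusted p = 0.11).

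Leukocyte markers were lower along with the genes that fell. Beside the calls below, 3.1% of all tested genes fell in limma. All 8 leukocyte markers fell, and their summed level was 15.4 to 24.6 FPKM in Znf750 cKO libraries, against 101 to 148 FPKM in control libraries. Of the macrophage markers 7 were tested and 7 fell, and the list summed to 14.3 to 15.6 FPKM in Znf750 cKO libraries and 74.4 to 122 FPKM in control libraries. Of the Langerhans cell list 7 were tested and 6 fell, with sums of 18.02 to 19.9 FPKM in Znf750 cKO libraries and 55.9 to 107 FPKM in control libraries. Langerin, Cd207, was at most 0.03 FPKM in Znf750 cKO libraries and 0.06 FPKM in control libraries, and Cd163 was at most 0.02 and 0 FPKM in the same groups. Leaving out Znf750 cKO replicate 1 left 4 leukocyte, 3 macrophage and 3 Langerhans cell genes that fell. Leaving out Znf750 cKO replicate 2 left 5 leukocyte and 4 macrophage genes, and leaving out control replicate 1 or 2 left 4 macrophage genes. Of these calls 1 leukocyte, 1 macrophage and 2 Langerhans cell genes had every Znf750 cKO library under 1 FPKM and reached the filter through control libraries alone. Others whose control libraries would have met it without the Znf750 cKO libraries were not counted. With the block the leukocyte, macrophage and Langerhans cell lists had 6, 5 and 4 genes that fell, beside 1.87% of all tested genes.

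Keratinocyte markers summed to 34326 to 43405 FPKM in Znf750 cKO libraries and to 30190 to 38318 FPKM in control libraries. Of the 8 keratinocyte markers 1 rose. Dsg3, a desmosomal cadherin of basal keratinocytes, had 76.8, 57.5 and 78.3 FPKM in Znf750 cKO libraries, against 41.0, 27.1 and 35.3 FPKM in control libraries (log2 change 1.02, limma adjusted p = 0.024). It did not pass in limma without Znf750 cKO replicate 1 (0.11), Znf750 cKO replicate 3 (0.065), control replicate 2 (0.066) or control replicate 3 (0.067), or with no filter (0.12). Krt14, a keratin of basal cells, had 6118, 6807 and 7473 FPKM in Znf750 cKO libraries, against 5073, 5112 and 5617 FPKM in control libraries, without overlap (limma adjusted p = 0.14). Krt15 and Lor went the other way, with log2 changes of -0.33 and -0.26 (limma adjusted p = 0.29 and 0.53). The remaining keratinocyte markers had positive fitted changes, and none of them passed. The ratio of means, Znf750 cKO over control, was 0.159 for the leukocyte list, 0.159 for the macrophage list and 0.247 for the Langerhans cell list. Mfge8, the tested gene of that list that did not fall, had 11.6, 9.88 and 10.9 FPKM in Znf750 cKO libraries, against 13.9, 9.88 and 11.8 FPKM in control libraries. Without it the Langerhans cell list summed to 6.44 to 8.99 FPKM in Znf750 cKO libraries and 44.1 to 92.6 FPKM in control libraries, a ratio of 0.124. For the members it was 0.188 for Tlr4 and 0.544 for Tlr2, and between 0.777 and 1.30 for the other 8. For Unc93b1 and Cd14 it was 0.152 and 0.244. The part of the leukocyte markers in these differences was not tested.

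**Figure D5:**
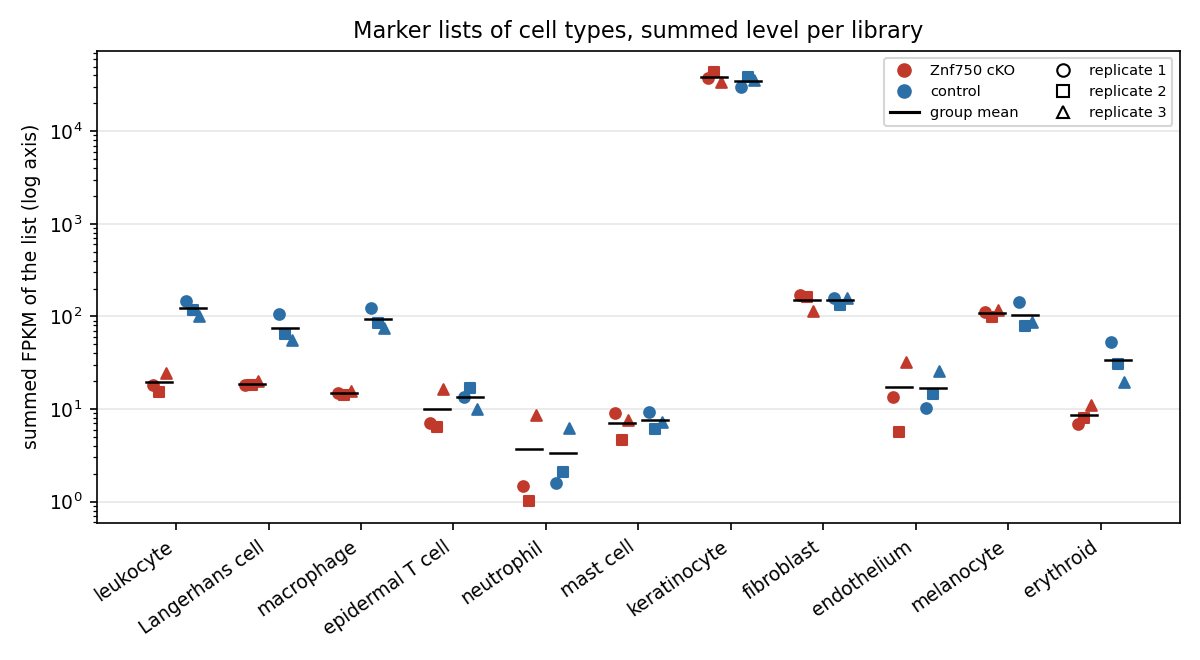
Summed FPKM of each marker list on a log axis, with Znf750 cKO on the left of each pair and control on the right; points are libraries and bars are group means. The leukocyte, Langerhans cell, macrophage and erythroid sums lie lower in every Znf750 cKO library, and the other lists overlap.

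The summed markers of the other cell types overlapped between the groups, except the erythroid list. Several sums rest on 1 gene, which made up 94.97% (Dcn, fibroblast), 99.3% (Kit, mast cell), 96.4% (Pecam1, endothelium) and 95.1% (Cxcr2, neutrophil) of the sum in Znf750 cKO libraries, and 95.6%, 96.0%, 95.7% and 96.4% in control libraries. The erythroid list summed to 6.92 to 11.1 FPKM in Znf750 cKO libraries and 19.6 to 52.7 FPKM in control libraries. The neutrophil marker Ly6g was listed at 0 in every library. The epidermal T cell list summed to 6.42 to 16.4 FPKM in Znf750 cKO libraries and 9.91 to 16.8 FPKM in control libraries. Thy1 made up 64.3% and 61.3% of it in the same groups. Neither of its 2 tested genes passed, with log2 changes of -0.73 for Cd3g and -0.33 for Thy1 (limma adjusted p = 0.16 and 0.65). Cd3g passed in 1 of the 6 limma fits with 1 library left out (adjusted p = 0.047).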

How the data were processed

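RNA of newborn epidermis was deposited as 1 FPKM table per library by the authors. The submitters' processing notes list RSEM 1.2.28, STAR 2.5.2a, cutadapt 1.15, Trim Galore 0.4.5, MultiQC 1.0, FastQC 0.11.8 and DESeq2, and name mm10 and GRCm38 as builds. Their roles, the annotation release and any filters were not given in the sources used here. RSEM, where it made these values, shares reads that fit several genes by estimated abundance. Symbols matched 55141 of 55487 identifiers, and coordinates are from GENCODE M21 (GRCm38). Sting1 was matched as Tmem173.

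Genes with at least 1 FPKM in 3 libraries were tested on log2(FPKM + 1) with limma 3.58.1 (trend, robust, statmod 1.5.0, R 4.3.3), all 6 libraries, group as the only term. These fold changes understate those of low genes. The fit was tested on simulated data. Figures used Python 3.11.15 and matplotlib 3.10.9. The design had allowed for counts, but the files hold FPKM.

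The members and lists were chosen with earlier results of these data known. Genes outside the rule were named after their values were seen. That is not said at each of them, for instance Krt5, Krt14, Krt15, Dsg3, Lor, Mfge8, Cd207 and Cd163. Named genes are the members, Zfp750, changed and most abundant genes of each pathway list, the markers at 0, and the genes most like Myd88. A gene that this rule names is not reported here. Depth came from FPKM steps of genes with 1 transcript, with 72.6% to 80.9% of low values within 0.1 read of a whole number. These depths are estimates and entered no test.

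Replicates share numbers across groups. Deviations from group means correlated at 0.31, 0.17 and 0.48 for numbers 1, 2 and 3, each over the limit of 0.1, so a fit with the number as a block was run. Znf750 cKO replicate 2 correlated with control replicate 1 at 0.24, above its own number, and the other 5 unlike pairs were negative. The pairing rests on these correlations alone, because no label explains the numbers. The protein comparison planned for the members was not run, since no protein sequences were used here.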

Additional observations from a re-analysis of the deposited data

How the results depend on the processing

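No member passed in any of the 18 fits, which cover pseudocounts, filters, scalings, the limma options, the replicate block, and libraries left out. Signs turned, without a call, for Myd88 without replicate 3 of both groups (log2 change 0.0073), Ticam1 without control replicate 2 (-0.026), and Tlr1 with quantile normalization (0.0083) and without Znf750 cKO replicate 1 (0.0065). With 1 library left out the log2 change ranged from -0.42 to 0.0065 for Tlr1 and from -0.026 to 0.22 for Ticam1. The number of members left untested was 2, and 0 with the filter at 0.1 FPKM, with that filter and a pseudocount of 0.1, or with no filter.

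Over all genes 577 changed, 85 with no filter, where more genes are tested, and 100 to 356 with 1 library left out. With the replicate block 136 rose and 256 fell. The split of 152 higher and 425 lower became 258 and 295 with median-ratio scaling and 201 and 218 with quantile normalization. Of other pathway genes 8 changed, 5 with the filter at 0.1 FPKM and 0 with no filter. With no filter 36 had an unadjusted p under 0.05 in limma, and the share of all genes at that p is not given here. With the replicate block 4 changed, and 1 to 6 with 1 library left out. The block changed the calls of Ifi204, Clec4n, Card9 and Mrc1 and of no member. Zfp750 fell in every fit. At these depths Tlr4 rests on few reads per library.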

Other observations

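A few genes of the marker and pathway lists were high in replicate 3 of both groups and were picked out after their values were seen. Cxcr2, a chemokine receptor of neutrophils, had 1.35, 1.01 and 8.28 FPKM in Znf750 cKO libraries, against 1.55, 1.97 and 6.09 FPKM in control libraries. Pecam1, an adhesion molecule of endothelium and leukocytes, had 12.9, 5.46 and 31.1 FPKM in Znf750 cKO libraries, against 9.34, 13.9 and 25.1 FPKM in control libraries. The other members of these lists were lower. Vwf, an endothelial gene, had 0.46, 0.14 and 0.92 FPKM in Znf750 cKO libraries, against 0.87, 0.48 and 0.49 FPKM in control libraries, and Cdh5, Kdr and Tek were at most 0.10 FPKM in Znf750 cKO libraries and 0.08 FPKM in control libraries. Mpo, a neutrophil granule gene, had 0.09, 0 and 0.28 FPKM in Znf750 cKO libraries, against 0.01, 0.13 and 0.15 FPKM in control libraries. Elane, Camp and Ngp were at most 0.10 FPKM in Znf750 cKO libraries and 0.04 FPKM in control libraries.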
